A study of Mus musculus with 9 samples.

Results

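The axoneme is the microtubule skeleton of a motile cilium, and 87 genes of this structure and its assembly were followed through sorted progenitor cells of the newborn mouse brain. The genes were taken from the 18329 rows of the deposited expression table, 69 by the opening letters of their symbols (axonemal dynein chains Dnah, Dnaic and Dnali, assembly factors Dnaaf, cilia and flagella associated proteins Cfap, spoke heads Rsph, tektins Tekt, regulatory complex Drc and light chain relatives Tctex1d) and 18 by name. That rule reads symbols and not measured values. Total RNA was sequenced from 3 libraries of each of 3 cell populations of the third ventricular zone (TVZ), the progenitor layer lining the third ventricle. All came from untreated Nestin-CFPnuc mice on a C57/BL6 background at postnatal day 1. The reporter places cyan fluorescent protein under the Nestin promoter, so that "Nestin+" means fluorescence of a transgene, and CD133, encoded by Prom1, is a surface protein of progenitor and ependymal membranes. Cells were sorted into populations labelled CD133+, Nestin+ and CD133+Nestin+, and it is not stated that the first pair lacked the other marker. Each library carries a sort number from 1 to 3, used here as its replicate number and equal to a passage number in the labels. Whether the replicates came from different animals or cultures is not stated, and the p-values cover the spread between these libraries alone, which may be technical.

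In a motile cilium, outer and inner dynein arms attached to a ring of microtubule doublets make the doublets slide. Radial spokes and the central apparatus regulate the arms, and the nexin-dynein regulatory complex links neighbouring doublets and turns sliding into bending. Dynein arms are preassembled in the cytoplasm by a set of chaperone-like factors. In the brain such cilia are carried in tufts by ependymal cells, which line the ventricles and move cerebrospinal fluid. These cells arise from radial glia and mature under regulators such as Foxj1.

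Levels are given as CPM, read counts scaled to a common library total. The files do not name the unit, and it was read from the spacing of low values. In it, 1 read was worth 0.0286 to 0.0344 CPM, and 3 reads, the limit that a count of 0 allows, 0.086 to 0.103 CPM. That limit covers counting error only. All 87 genes passed the filter of 1 CPM or more in at least 3 libraries. Prom1 stood at 146, 182 and 179 CPM in CD133+, 142, 116 and 181 in CD133+Nestin+ and 58.1, 39.3 and 55.8 in Nestin+ libraries, and Nes, which encodes Nestin, at 39.5, 56.9 and 57.3 CPM in CD133+, 210.2, 172 and 212 in CD133+Nestin+ and 195, 157 and 166 in Nestin+ libraries. Both levels followed the sorting labels. The sets of libraries with the same number deviated together, and CD133+ replicate 2 stood apart in axoneme genes, as given below.

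Axoneme genes were present in all 3 populations but were lowest by far in Nestin+ cells. Together the 87 genes made up 6015, 12624 and 6311 CPM in the CD133+ libraries, 5771, 8315 and 7645 CPM in the CD133+Nestin+ libraries, and 1845, 2097 and 2376 CPM in the Nestin+ libraries. The summed level was thus 8316 ± 3733 (SD, n = 3), 7244 ± 1318 (SD, n = 3) and 2106 ± 265 CPM (SD, n = 3) in that order. The highest Nestin+ library lay below the lowest library of both CD133-sorted populations, which overlapped each other. In bulk samples such as these, fewer cells of a type and less RNA per cell cannot be told apart.

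**Figure D1:**
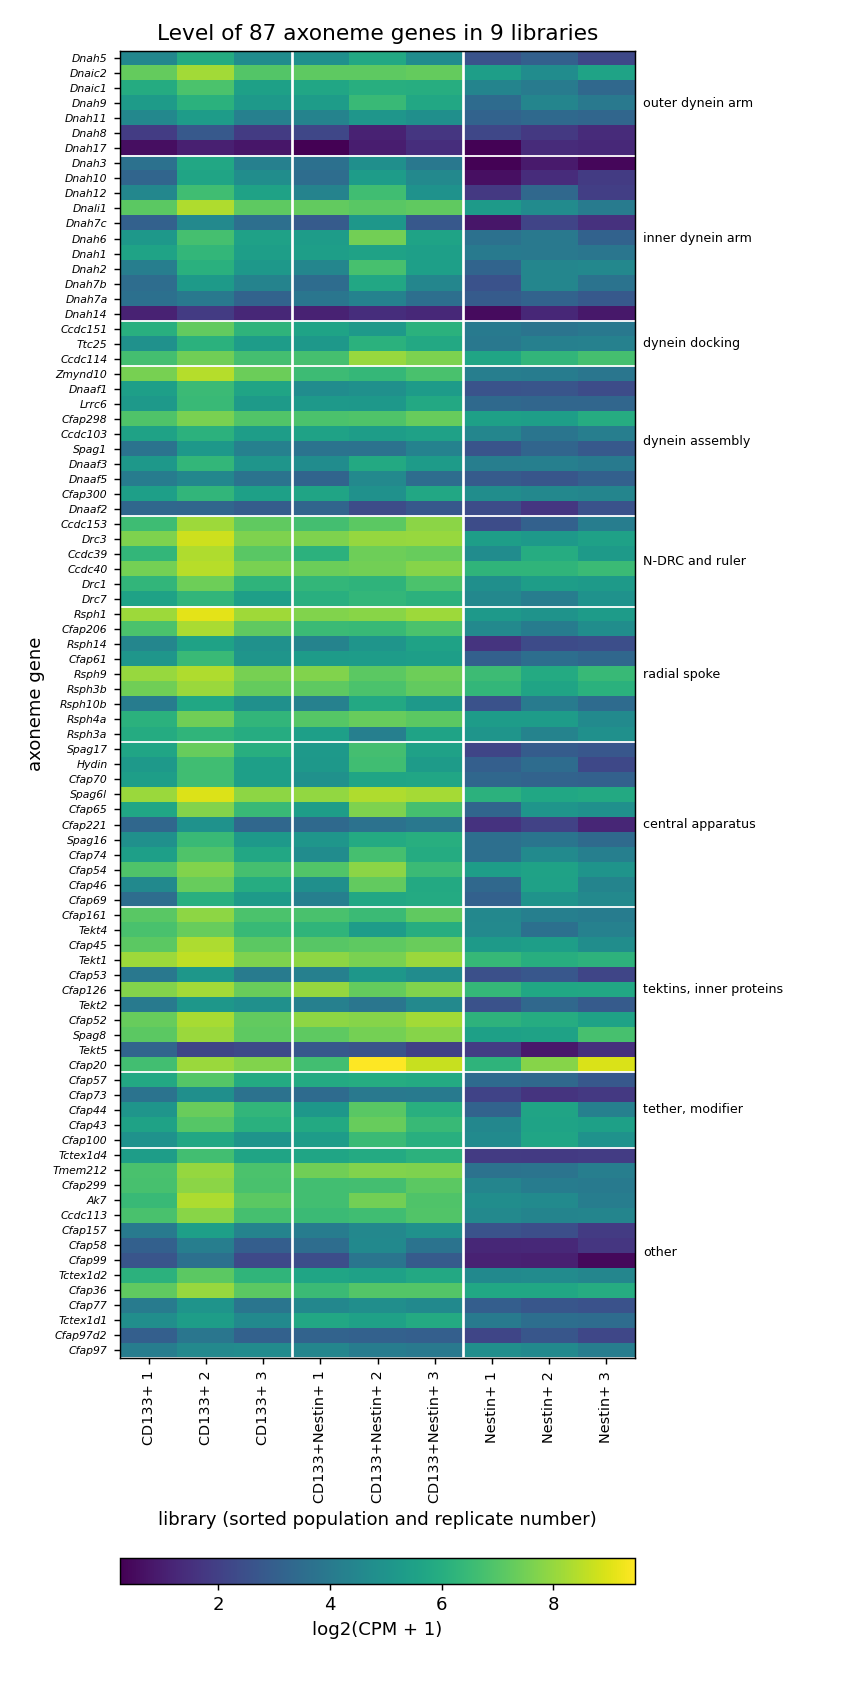
Level of each of the 87 axoneme genes (rows, grouped by structural role) in each of the 9 libraries (columns), as log2(CPM + 1) on the colour scale. Most rows are darker in the 3 Nestin+ columns than in the other columns, and CD133+ replicate 2 is the brightest CD133+ column in 84 of the 87 rows. Cfap20, Cfap97, Dnah17 and Dnah8 follow the pattern of the other rows least.

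The first comparison asks how Nestin+ cells, sorted by the reporter, differ from CD133+ cells. Of the 87 genes, 67 fell and 0 rose in Nestin+ cells (limma with Benjamini-Hochberg adjustment over 16143 genes, adjusted p under 0.05). Over all genes tested the same rule called 9.42% lower and 2.45% higher. For 73 axoneme genes all 3 Nestin+ libraries lay below all 3 CD133+ libraries, against 21.1% of all genes. The median log2 difference of the 87 genes, on the log2(CPM + 1) scale used throughout, was -1.88, a fold of 3.68, while the median over all genes was -0.02. Gene by gene the difference ran from -4.10 to 0.19, and 75 genes differed by more than 1 and 11 by more than 3 log2 units. In the authors' deposited table, at a step-up false discovery rate of 0.05 or less, 64 of the genes were lower and 0 higher, against 7.38% of its 18329 genes lower and 1.69% higher. The count of 67 was 48 when CD133+ replicate 2 was left out.

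The 2 comparisons of CD133+Nestin+ cells share libraries with this one, so they are not independent of it. Against Nestin+ cells, the CD133+Nestin+ cells had 53 axoneme genes higher and 0 lower, where the rule called 2.87% of all genes higher and 0.254% lower. The groups did not overlap for 74 of the 87, against 11.1% of all genes, and the median log2 difference was 1.81, a fold of 3.5, beside -0.04 over all genes. The authors' deposited table listed 51 of them as higher and 0 as lower, against 2.49% of its genes higher and 0.104% lower. The count of 53 was sensitive to single libraries: it was 24 without CD133+Nestin+ replicate 3, 27 without Nestin+ replicate 2 and 28 without Nestin+ replicate 3. It was 10 when the CD133+Nestin+ and Nestin+ libraries numbered 2 were left out together, with the median at 1.79, but 47 (of 86 tested) when all 3 libraries numbered 2 were left out. With the replicate number as a block it was 74, but the 2.87% of all genes comes from the fit without the block.

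Against CD133+ cells, 0 of the 87 genes were called in either direction in CD133+Nestin+ cells by limma with Benjamini-Hochberg adjustment, where 2.12% of all genes were called lower and 0.297% higher. At an unadjusted p under 0.05, 7 were lower and 1 higher, against 8.64% and 3.93% of all genes. The authors' deposited table likewise called 0 of them, against 0.786% of its genes lower and 0.169% higher. The median difference was -0.18, with 57 genes below 0 and 30 above, beside a median of -0.06 over all genes. Standard errors of these differences ran from 0.27 to 0.77 log2 units. Differences larger than these, down to -1.21, were not called either, so the count of 0 does not exclude differences of that size. Leaving out CD133+ replicate 2 turned the median to 0.21.

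**Figure D2:**
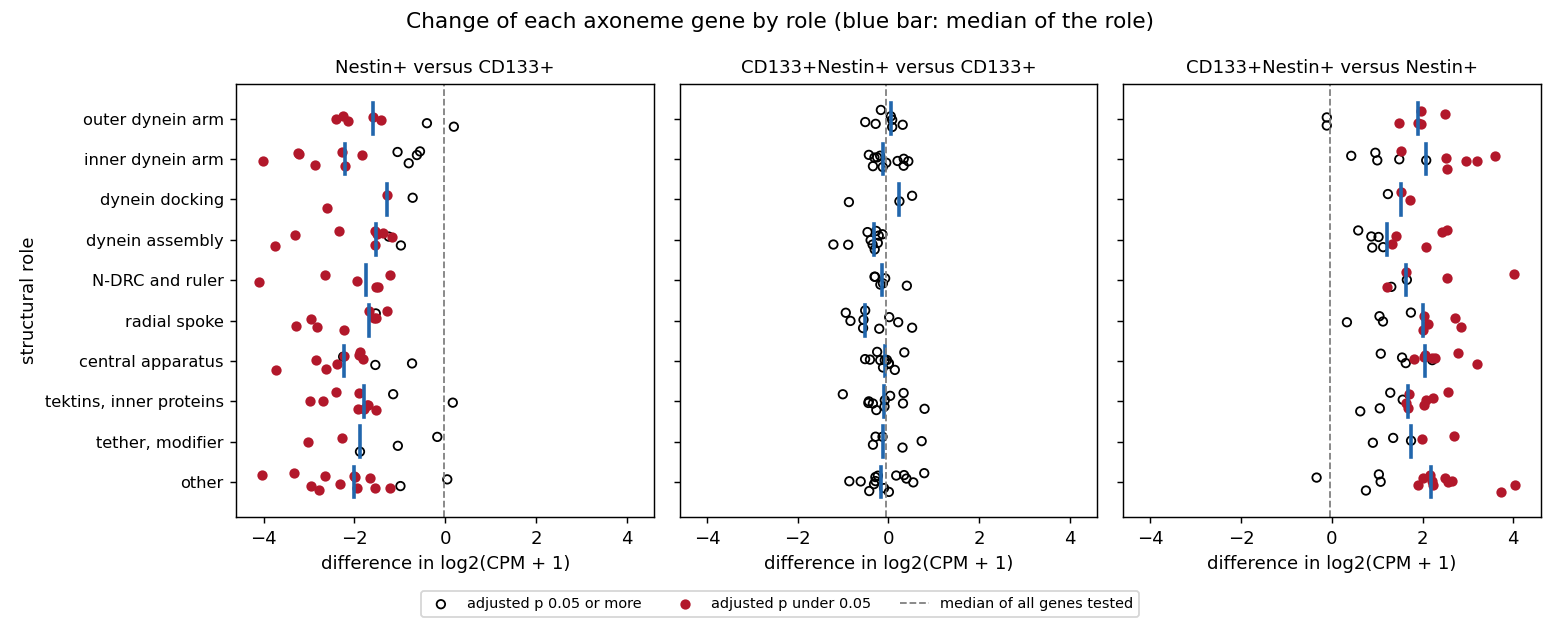
Difference in log2(CPM + 1) of each axoneme gene (points) by structural role (rows) in the 3 comparisons (panels); filled points have an adjusted p under 0.05, the blue bar is the median of the role and the dashed line the median of all genes tested. Filled points lie to the left in Nestin+ versus CD133+ (67 genes) and to the right in CD133+Nestin+ versus Nestin+ (53 genes), and the middle panel has 0.

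Promoter sequences are shown because RFX factors are known activators of ciliary genes that bind the core GTTGCC or its reverse complement GGCAAC. A part of RFX factors in the differences between populations was not tested. RefSeq promoter windows (GRCm38.p6, 250 bases before to 50 after each transcription start) were matched by symbol for 72 of the 87 genes, giving 79 windows. The core, sought on both strands, occurred in 43.0% of the axoneme windows and in 12.5% of all 32851 windows. Among windows of genes in the deposited expression table the share was 13.2%. The 7 examples below are 40 bases long, 5′ to 3′ on the gene's strand, with the core in capitals. The first is Ccdc153, the gene with the largest fall (chr9:44240508-44240547, + strand), followed by Cfap298 (chr16:90935015-90935054, - strand), Dnaic2 (chr11:114727376-114727415, + strand), Tekt1 (chr11:72361895-72361934, - strand) and Tctex1d1 (chr4:102978540-102978579, + strand), which also fell. Cfap44 (chr16:44394653-44394692, + strand) and Cfap20 (chr8:95434941-95434980, - strand) carried the core but were not called in Nestin+ versus CD133+.
Ccdc153: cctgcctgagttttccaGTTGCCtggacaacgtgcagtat
Cfap298: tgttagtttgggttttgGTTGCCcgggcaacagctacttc
Dnaic2: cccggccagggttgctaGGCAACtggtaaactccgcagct
Tekt1: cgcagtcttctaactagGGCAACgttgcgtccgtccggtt
Tctex1d1: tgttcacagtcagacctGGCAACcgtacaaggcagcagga
Cfap44: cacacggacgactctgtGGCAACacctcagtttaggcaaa
Cfap20: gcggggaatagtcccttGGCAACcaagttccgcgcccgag

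The core began 152 bases upstream of the start in Ccdc153, 188 in Cfap298, 26 in Dnaic2, 35 in Tekt1, 146 in Tctex1d1, 129 in Cfap44 and 94 in Cfap20. In the Cfap298 site it was followed after 2 bases by its reverse complement. That arrangement is the palindromic RFX motif, GTTNCC and GGNAAC spaced by 2 bases. It was present in 2 axoneme windows, those of Cfap298 and Ccdc151 (2.5% of axoneme windows, 0.5% of all windows), and every palindrome that reads GTTGCC or GGCAAC in an arm also counts as a core match. Cores were densest in the last 50 bases before the start, with 19.0 matches per 100 axoneme windows against 2.70 per 100 of all windows. The core was found in 40.3% of the windows of the genes called lower and in 52.9% (9 of 17) of the windows of genes not called. The forkhead core TAAACA, letters bound by Foxj1 and many other forkhead factors, was present in 19.0% of axoneme and 13.4% of all windows. Among windows of genes in the deposited expression table the share was 9.0%. Within the axoneme genes it was 14.5% of windows of called and 35.3% of windows of uncalled genes. These are matches of letters, not measured binding.

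**Figure D3:**
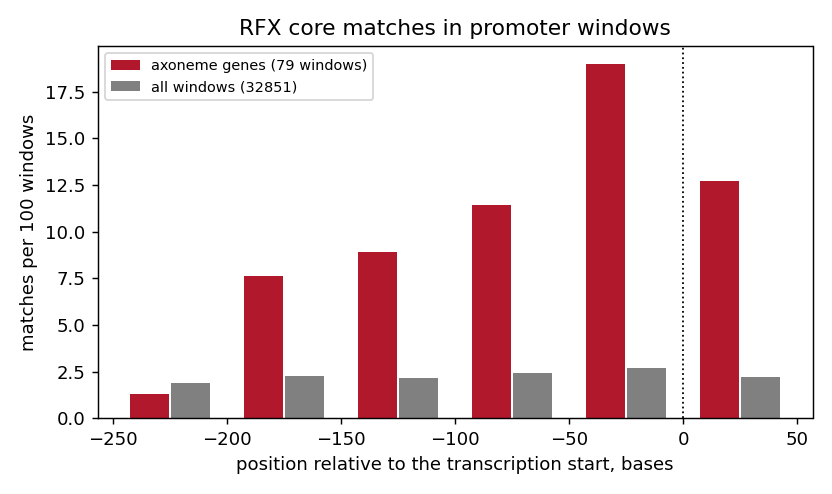
Matches of the RFX core GTTGCC (either strand) per 100 promoter windows, in steps of 50 bases along the window, for the 79 axoneme windows and all 32851 windows. The axoneme bars are highest between 50 bases upstream and the start (19.0 against 2.70) and lowest at the far upstream end (1.3 against 1.91).

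Outer dynein arm genes, which encode the motors that set beat frequency, fell in 5 of 7 cases in Nestin+ cells, with a median of -1.60, and 5 of 7 were higher in CD133+Nestin+ than in Nestin+ cells. Dnah5 (chromosome 15, 28203752 to 28472052 in GRCm38, the build of all positions given), a heavy chain found along the whole arm row, stood at 21.6, 58.8 and 25.6 CPM in CD133+, 28, 55 and 25.3 in CD133+Nestin+ and 5.01, 7.46 and 3.76 in Nestin+ libraries. The Nestin+ libraries lay below all others, at a log2 difference from CD133+ of -2.41 ± 0.43 (SE; adjusted p = 0.00384). Dnaic2, an intermediate chain, stood at 154, 288 and 128 CPM in CD133+, 144, 142 and 153 in CD133+Nestin+ and 41.6, 25.6 and 47 in Nestin+ libraries, with a difference of -2.24 ± 0.33 (adjusted p = 0.00141). Dnaic1, its partner chain, differed by -2.13 ± 0.37. Dnah9, the heavy chain of the distal arms, fell by 1.6 on the log2 scale, but this call was lost without CD133+ replicate 2, Nestin+ replicate 1 or Nestin+ replicate 3 (adjusted p up to 0.0932 over the alternatives). The members not called were Dnah8 and Dnah17, heavy chains best known from sperm. Dnah8 stood at 2.73, 6.08 and 2.6 CPM in CD133+, 3.63, 1.19 and 2.23 in CD133+Nestin+ and 3.59, 2.44 and 1.6 in Nestin+ libraries, and Dnah17 at 0.487, 1.09 and 0.734 CPM in CD133+, 0.188, 0.966 and 1.73 in CD133+Nestin+ and 0.242, 1.58 and 1.5 in Nestin+ libraries. Per kilobase of exon the CD133+ level of Dnah17 was 0.0477 CPM against 2.26 for Dnah5, and the 3 populations overlapped for both sperm-type chains.

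Inner dynein arm genes, whose motors shape the bend, fell in 7 of 11 cases, with a median of -2.21. Dnah3 (chromosome 7, 119922671 to 120095280) had one of the largest falls of all 87. It stood at 11.8, 53.6 and 18.3 CPM in CD133+, 11.6, 27.6 and 14.2 in CD133+Nestin+ and 0.244, 0.88 and 0.328 in Nestin+ libraries, a difference of -4.03 ± 0.52 (adjusted p = 6.42e-04). Dnali1, a light chain, stood at 139, 324 and 142 CPM in CD133+, 153, 138 and 148 in CD133+Nestin+ and 37.9, 24.7 and 16 in Nestin+ libraries, with a difference of -2.86 ± 0.38 and no overlap of the Nestin+ libraries with either other population. Dnah1, a heavy chain, differed by -1.83 ± 0.27. Dnah6 differed by -2.21 ± 0.56, a call lost without CD133+ replicate 2 or 3 or any 1 of the Nestin+ libraries (adjusted p up to 0.132). The heavy chains Dnah2 at -1.05 ± 0.62, Dnah7a at -0.62 ± 0.32, Dnah7b at -0.8 ± 0.64 and Dnah14 at -0.56 ± 0.32 were not called. Dnah7c was called lower by limma (adjusted p = 0.0411), a call lost in 8 of 19 alternatives (adjusted p up to 0.199). Dnah7a, Dnah7b and Dnah7c are near copies of each other, so reads may have been divided among them. They share 40.3%, 48.4% and 48.5% of their 50-base words with other genes.

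Of the 3 docking genes, which anchor outer arms to the doublet, Ccdc151 fell most. It stood at 66.2, 151 and 75.1 CPM in CD133+, 47.7, 36.4 and 68.5 in CD133+Nestin+ and 15.2, 12.8 and 14.2 in Nestin+ libraries, and differed from CD133+ by -2.61 ± 0.34 in Nestin+ cells (adjusted p = 6.68e-04). Ccdc114 stood at 103, 177 and 102 CPM in CD133+, 106, 263 and 199.5 in CD133+Nestin+ and 50.1, 78.3 and 105 in Nestin+ libraries. Its Nestin+ and CD133+ libraries overlapped, and it was not called in any of the 3 comparisons (-0.72 ± 0.39 for Nestin+ versus CD133+). With the replicate number as a block, limma called it higher in CD133+Nestin+ versus Nestin+ (adjusted p = 0.02). Ttc25 was called at -1.29 ± 0.35 (adjusted p = 0.0358) and lost that call in 10 of 19 alternatives, leaving out CD133+ replicate 2 among them (adjusted p up to 0.163).

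The dynein assembly factors fell in 8 of 10 cases in Nestin+ cells, with a median of -1.52. Zmynd10 (chromosome 9, 107547298 to 107551319), a co-chaperone for dynein heavy chains, stood at 189.5, 348 and 168 CPM in CD133+, 93.5, 82.9 and 112 in CD133+Nestin+ and 17.2, 16.2 and 13.6 in Nestin+ libraries. All 3 populations were separate, CD133+ being highest and Nestin+ lowest. The difference between Nestin+ and CD133+ was -3.75 ± 0.29 (adjusted p = 5.38e-05). Dnaaf1, a leucine-rich repeat assembly factor, was ordered in the same way, at 42.4, 91 and 48.3 CPM in CD133+, 25.6, 28.2 and 38.9 in CD133+Nestin+ and 5.04, 5.33 and 4.17 in Nestin+ libraries, with a difference of -3.32 ± 0.32. Between CD133+Nestin+ and CD133+ cells all 10 assembly factors lay below 0, from -1.21 to -0.13 with a median of -0.33, but 0 were called. For Zmynd10 that difference was -1.21 ± 0.29, with an adjusted p of 0.0596 from limma, and 0.0335 with the replicate number as a block. It was the only one of the 87 called in that comparison under the block. Cfap298 and Ccdc103 differed by -1.55 ± 0.27 and -1.54 ± 0.28 between Nestin+ and CD133+. Cfap298 shares 41.7% of its 50-base words with other genes, 34.5% with 1 overlapping gene model. Cfap300 was called at -1.18 ± 0.31, but not without CD133+ replicate 2 or 3 or any 1 of the Nestin+ libraries (adjusted p up to 0.147). Dnaaf2 and Dnaaf5 were not called, at -0.98 ± 0.35 and -1.24 ± 0.38. Dnaaf2 shares 68.1% of its 50-base words with other genes, so its separate value is uncertain.

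The nexin-dynein regulatory complex and the ruler proteins, which space the structures along the doublet, fell in 6 of 6 cases, with a median of -1.74. Ccdc153 (chromosome 9, 44240676 to 44247306), a subunit of the complex, had the largest fall of the 87. It stood at 96.8, 274 and 148 CPM in CD133+, 104, 141 and 229 in CD133+Nestin+ and 4.19, 7.59 and 16.9 in Nestin+ libraries. The Nestin+ libraries did not reach the other populations, and the difference from CD133+ was -4.1 ± 0.5, a fold of 17.1 (adjusted p = 4.60e-04). Drc3, another subunit, stood at 202, 427 and 203 CPM in CD133+, 201, 257 and 263 in CD133+Nestin+ and 41.1, 35.7 and 44.7 in Nestin+ libraries, a difference of -2.66 ± 0.31. The ruler gene Ccdc40 stood at 186, 357 and 192 CPM in CD133+, 167, 181 and 222 in CD133+Nestin+ and 75.6, 76.5 and 90.7 in Nestin+ libraries and differed by -1.52 ± 0.29. Its partner Ccdc39 differed by -1.95 ± 0.52, a call lost without CD133+ replicate 2 or 3 or Nestin+ replicate 1 or 3 (adjusted p up to 0.143). Ccdc39 overlaps Ttc14 and shares 29.6% of its 50-base words with it.

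Radial spoke genes fell in 8 of 9 cases, with a median of -1.68. Rsph1 (chromosome 17, 31255019 to 31277383), a spoke head protein, had the highest level per kilobase of exon of the 87 in CD133+ cells, 266 CPM per kilobase. It stood at 273, 542 and 280.3 CPM in CD133+, 209.5, 226 and 273 in CD133+Nestin+ and 35.7, 30.4 and 38.4 in Nestin+ libraries, with a difference of -3.28 ± 0.3 (adjusted p = 8.70e-05). Rsph9, another spoke head protein, stood at 259.5, 324 and 187 CPM in CD133+, 209, 140.2 and 169.9 in CD133+Nestin+ and 92.8, 57.8 and 87 in Nestin+ libraries, with a difference of -1.68 ± 0.3. Cfap206, a spoke base protein, differed by -2.97 ± 0.35. Rsph4a, a spoke head scaffold, differed by -1.52 ± 0.35 and was not called without CD133+ replicate 2 or Nestin+ replicate 3 (adjusted p up to 0.078). Rsph3a and Rsph3b, spoke stalk genes, share 79.3% and 77.7% of their 50-base words with other genes, mostly each other, so their separate values are uncertain. Rsph3b differed by -1.57 ± 0.29, and Rsph3a by -1.28 ± 0.36 with its call lost in 9 of 19 alternatives, each left-out CD133+ or Nestin+ library among them (adjusted p up to 0.169). Rsph10b was not called, at -1.53 ± 0.52.

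Central apparatus genes, which build the central pair of microtubules and its projections, fell in 8 of 11 cases, with a median of -2.23. Spag17, a projection protein, stood at 49.5, 157 and 64.7 CPM in CD133+, 36.1, 104 and 44.8 in CD133+Nestin+ and 3.54, 6.52 and 5.65 in Nestin+ libraries. The difference was -3.72 ± 0.48 (adjusted p = 6.30e-04), and the Nestin+ libraries lay below all others. Spag6l, another projection protein, stood at 266, 506 and 235 CPM in CD133+, 250, 329 and 299.6 in CD133+Nestin+ and 70.4, 52.9 and 56.9 in Nestin+ libraries, with a difference of -2.39 ± 0.31. Cfap54 stood at 119.7, 207 and 105 CPM in CD133+, 125, 230 and 92 in CD133+Nestin+ and 40.7, 46 and 31.1 in Nestin+ libraries, a difference of -1.8 ± 0.37, and CD133+Nestin+ replicate 2 was the highest of all 9 libraries. Cfap65 at -2.25 ± 0.67, Cfap46 at -1.54 ± 0.76 and Cfap69 at -0.73 ± 0.68 were not called.

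Tektins and other proteins inside the doublet fell in 9 of 11 cases, with a median of -1.79. Tekt1 (chromosome 11, 72344722 to 72362442), a filament of the doublet wall, stood at 276, 385 and 203 CPM in CD133+, 239, 192 and 269.8 in CD133+Nestin+ and 84.2, 63.6 and 73.2 in Nestin+ libraries. Nestin+ libraries were lowest, with a difference of -1.91 ± 0.28 (adjusted p = 0.0014). Tekt4, another tektin, stood at 112, 159 and 87.7 CPM in CD133+, 75.9, 39.5 and 62.4 in CD133+Nestin+ and 23.1, 11.4 and 18.7 in Nestin+ libraries. It differed by -2.69 ± 0.34 between Nestin+ and CD133+, and its CD133+Nestin+ libraries also lay below all CD133+ libraries (-1.01 ± 0.34, adjusted p = 0.213, not called). Cfap126 and Cfap52 differed by -1.79 ± 0.31 and -1.7 ± 0.31 between Nestin+ and CD133+. Tekt5, a tektin best known from sperm, was not called at -1.15 ± 0.41. Among the genes tied to inner arm tethering and modification 2 of 5 fell. Cfap57 stood at 55.6, 129 and 57.4 CPM in CD133+, 58.2, 60.3 and 57.1 in CD133+Nestin+ and 10.2, 9.32 and 5.86 in Nestin+ libraries, a difference of -3.03 ± 0.34 (adjusted p = 2.86e-04). The tether genes Cfap43 and Cfap44 were not called, at -1.04 ± 0.47 and -1.88 ± 0.71, nor was Cfap100 at -0.17 ± 0.37.

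Among the 14 genes placed in no substructure here, 12 fell, with a median of -2.0. Tctex1d4 (chromosome 4, 117126794 to 117128738), related to dynein light chains, stood at 40.7, 100.3 and 48.1 CPM in CD133+, 49.5, 57.5 and 70.7 in CD133+Nestin+ and 2.63, 2.5 and 2.67 in Nestin+ libraries. CD133+ and CD133+Nestin+ libraries overlapped, and Nestin+ differed from CD133+ by -4.04 ± 0.33, a fold of 16.4 (adjusted p = 6.54e-05). Tmem212, a membrane protein gene, stood at 112, 253 and 116 CPM in CD133+, 176, 208 and 204 in CD133+Nestin+ and 12, 12.9 and 17 in Nestin+ libraries, with a difference of -3.33 ± 0.32. Ak7, an adenylate kinase of cilia, stood at 88.8, 319 and 138 CPM in CD133+, 100.4, 180.4 and 119 in CD133+Nestin+ and 26.1, 24.4 and 16.9 in Nestin+ libraries, with a difference of -2.78 ± 0.42. Cfap299, Cfap58 and Cfap36 differed by -2.96 ± 0.31, -2.01 ± 0.41 and -1.65 ± 0.28. Cfap97 and Cfap97d2 were not called, at 0.05 ± 0.28 and -0.99 ± 0.33.

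**Figure D4:**
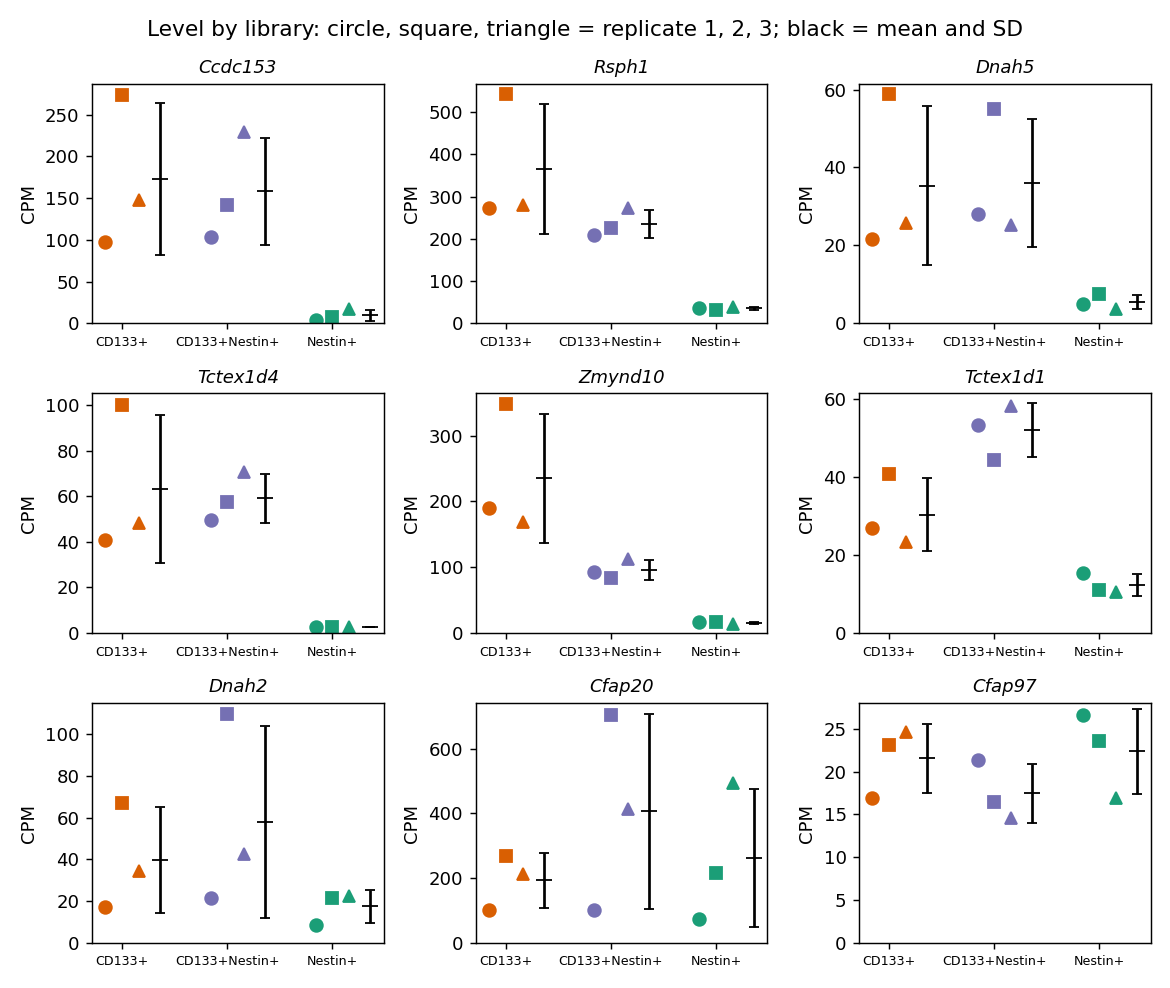
Level in CPM of 9 axoneme genes (panels) in each library, with circles, squares and triangles for replicates 1, 2 and 3 and a black mark with bars for the mean and SD of each population (n = 3). Nestin+ points lie below the others for Ccdc153, Rsph1, Dnah5, Tctex1d4, Zmynd10 and Tctex1d1, and the populations overlap for Dnah2, Cfap20 and Cfap97.

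The comparison of CD133+Nestin+ with Nestin+ cells reuses the Nestin+ libraries of the falls above. In it Tctex1d4 differed by 4.05 ± 0.33, Ccdc153 by 4.02 ± 0.5, Tmem212 by 3.73 ± 0.32, Dnah3 by 3.59 ± 0.52 and Spag17 by 3.21 ± 0.48. Their adjusted p-values were 0.00131, 0.00249, 0.00131, 0.00439 and 0.00538 by limma with Benjamini-Hochberg adjustment. Ccdc153, Dnah3 and Spag17 were not called once the Nestin+ and CD133+Nestin+ libraries numbered 2 were left out together, with adjusted p up to 0.0538, 0.0574 and 0.0574 over the alternatives. Called in each of the 19 alternatives were 10 genes: Tctex1d4, Tmem212, Rsph1 (2.72 ± 0.3), Zmynd10 (2.54 ± 0.29), Drc3 (2.53 ± 0.31), Dnaaf1 (2.43 ± 0.32), Cfap57 (2.69 ± 0.34), Cfap299 (2.65 ± 0.31), Cfap161 (2.56 ± 0.31) and Tctex1d1 (2.01 ± 0.28). By role, 5 of 7 outer arm, 6 of 11 inner arm, 2 of 3 docking and 5 of 10 assembly genes were higher. So were 4 of 6 regulatory complex and ruler, 5 of 9 spoke, 7 of 11 central apparatus, 7 of 11 tektin and inner protein, 2 of 5 tether and 10 of the remaining 14 genes. At the other end, Cfap97 at -0.33 ± 0.28, Dnah8 at -0.11 ± 0.41, Dnah17 at -0.11 ± 0.39, Rsph3a at 0.33 ± 0.36 and Dnah14 at 0.43 ± 0.32 were not called.

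Between CD133+Nestin+ and CD133+ cells none of the extremes passed the test. The highest were Cfap20 at 0.79 ± 0.77, Tctex1d1 at 0.79 ± 0.28, Cfap100 at 0.73 ± 0.37, Cfap58 at 0.55 ± 0.41 and Rsph4a at 0.52 ± 0.35, with adjusted p-values from 0.239 to 0.726 by limma. The lowest were Zmynd10, Tekt4, Rsph3a at -0.94 ± 0.36, Dnaaf1 at -0.89 ± 0.32 and Ccdc151 at -0.87 ± 0.34. Tctex1d1 stood at 26.9, 40.9 and 23.4 CPM in CD133+, 53.5, 44.5 and 58.3 in CD133+Nestin+ and 15.5, 10.9 and 10.5 in Nestin+ libraries, the only one of the 87 with every CD133+Nestin+ library above every CD133+ library, while 8 genes showed the opposite separation. Over all genes the same separations were found for 6.56% (higher) and 10.9% (lower). Its fall in Nestin+ cells (-1.22 ± 0.28) was not called without CD133+ replicate 2 or Nestin+ replicate 2 or 3 (adjusted p up to 0.104), and it shares 81.7% of its 50-base words with another gene model. Within replicate numbers the median difference between these populations was -0.004 in replicate 1, -0.68 in replicate 2 and 0.26 in replicate 3. Over all genes the medians were 0.008, -0.237 and 0.025 in that order. The sign of the axoneme median thus changed with the replicate.

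Of the 20 genes not called between Nestin+ and CD133+, 3 lay above 0. They were Cfap97, Cfap20 (0.17 ± 0.77) and Dnah17 (0.19 ± 0.39). Cfap20, a protein of the inner junction of the doublet that is also known outside motile cilia, stood at 100, 267 and 211 CPM in CD133+, 102, 703 and 414 in CD133+Nestin+ and 74.2, 217 and 495 in Nestin+ libraries. In CD133+Nestin+ and Nestin+ cells its replicates spread over several fold, with replicate 1 lowest in every population. Cfap97 stood at 16.9, 23.1 and 24.6 CPM in CD133+, 21.3, 16.4 and 14.6 in CD133+Nestin+ and 26.6, 23.6 and 16.9 in Nestin+ libraries, near one level in all 9 libraries. With the replicate number as a block, for which the share of all genes called is not given here, 10 of the 20 were called lower. These were Cfap65 (adjusted p = 1.97e-04), Cfap44 (1.68e-04), Cfap46 (4.90e-04), Cfap43 (0.00653), Cfap97d2 (0.0343), Dnaaf5 (0.0271), Dnah2 (0.0234), Dnah7b (0.0338), Rsph10b (7.36e-04) and Tekt5 (0.0361) by limma with Benjamini-Hochberg adjustment. Cfap65 shows the pattern of values behind this, at 50.7, 214 and 89.1 CPM in CD133+, 41, 204 and 107 in CD133+Nestin+ and 8.42, 32.5 and 28.6 in Nestin+ libraries: replicate 2 was highest in every population, and Nestin+ was lowest within each number. Not called in any of the alternatives were Cfap100, Cfap20, Cfap97, Dnah8, Dnah14 and Dnah17.

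CD133+ replicate 2 was the highest CD133+ library for 84 of the 87 genes, at a median of 99.0 CPM against 42.2 and 44.4 in replicates 1 and 3. The median over all genes was 12.9 CPM in that library, 12.3 in replicate 1 and 13.6 in replicate 3. The fall in Nestin+ cells was nevertheless present within each replicate number, at medians of -1.54, -2.44 and -1.67, and 82 of the 87 genes were lower in all 3 numbers, against 31.7% of all genes. For CD133+Nestin+ versus Nestin+ the medians were 1.58, 1.89 and 1.87, and 82 genes were higher in all 3, against 21.9% of all genes. The axoneme genes include some very long transcripts, and their deviations from the other replicates were set against exon length. In CD133+Nestin+ replicate 2 the 19 genes over 10 kb of exon stood a median of 1.02 log2 units above the mean of the other replicates, and the 36 genes under 3 kb stood at -0.14. In Nestin+ replicate 2 the values were 0.55 and -0.10, and in CD133+ replicate 2 they were 1.23 and 1.03. Spearman's rho between deviation and length over the 87 genes, which share each library, was 0.57, 0.63 and 0.29 in that order, against 0.24, 0.32 and 0.11 over all genes. In the remaining libraries rho over the 87 genes was -0.47 and -0.02 in Nestin+ replicates 1 and 3, -0.42 in CD133+Nestin+ replicates 1 and 3, and -0.32 and 0.28 in CD133+ replicates 1 and 3. The relation thus took either sign across libraries, and it was largest in the Nestin+ and CD133+Nestin+ libraries numbered 2. In Nestin+ versus CD133+, 35 of 36 genes under 3 kb were called lower and 13 of 19 over 10 kb. The part of length in these results was not tested.

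**Figure D5:**
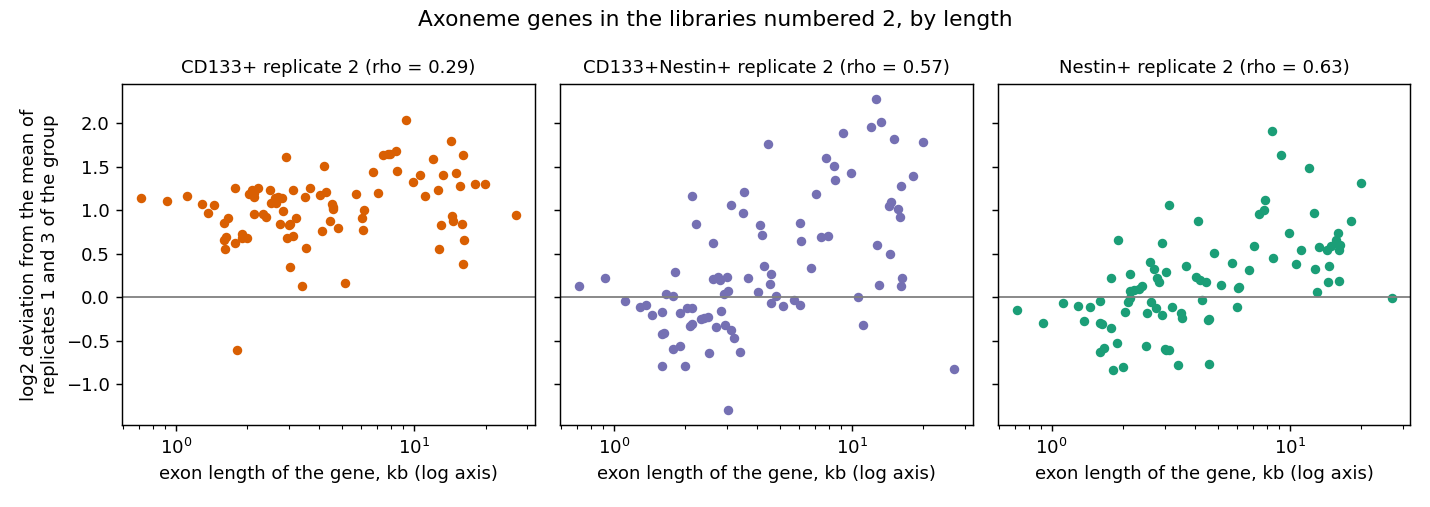
Deviation of each axoneme gene (points) in the libraries numbered 2 from the mean of replicates 1 and 3 of its population, in log2 units, against exon length in kb on a log axis. CD133+ replicate 2 lies above 0 at nearly all lengths (rho = 0.29), while in CD133+Nestin+ replicate 2 (rho = 0.57) and Nestin+ replicate 2 (rho = 0.63) the long genes are the high ones.

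Genes upstream of the axoneme programme were lower in Nestin+ cells too. Foxj1, the transcription factor of motile cilia, stood at 184, 421 and 176 CPM in CD133+, 149, 127 and 185 in CD133+Nestin+ and 40.4, 28 and 27.4 in Nestin+ libraries. It fell by 2.89 on the log2 scale in Nestin+ cells (adjusted p = 4.60e-04 by limma with Benjamini-Hochberg adjustment). Of 15 regulators of multiciliated fate, 11 fell and 0 rose in Nestin+ versus CD133+ cells, against 9.42% and 2.45% of all genes. In CD133+Nestin+ versus Nestin+ cells 9 were higher, against 2.87% of all genes. In CD133+Nestin+ versus CD133+ cells, where 0 axoneme genes were called, 6 of the 15 regulators were lower, against 2.12% of all genes. Among them Deup1, which builds the platforms for centriole amplification, stood at 483, 1113 and 485 CPM in CD133+, 171, 106 and 164 in CD133+Nestin+ and 19.9, 10.4 and 14.4 in Nestin+ libraries. All 3 populations were separate, and CD133+Nestin+ differed from CD133+ by -2.14 ± 0.37 (adjusted p = 0.0124). Ccno, a cyclin of the same stage, differed by -2.51 ± 0.44, and Mcidas, which drives multiciliated fate, by -1.75 ± 0.35 with an adjusted p of 0.0236. Foxj1 itself differed by -0.65 ± 0.35 in that comparison and was not called (adjusted p = 0.491). A difference between the regulators and the axoneme genes was not tested.

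Of 41 other motile cilium genes, 38 were in the table and 31 fell in Nestin+ cells, 0 were called in CD133+Nestin+ versus CD133+, and 28 were higher in CD133+Nestin+ than in Nestin+ cells. Their medians were -2.13, -0.19 and 1.76. Intraflagellar transport genes, whose trains also serve the immotile primary cilium, were lower in 11 of 25 cases in Nestin+ cells, with 0 called against CD133+ and 2 higher in CD133+Nestin+ than in Nestin+ cells. Their medians were -1.0, -0.19 and 0.92. Over all genes, 9.42% were called lower in Nestin+ versus CD133+ and 2.87% higher in CD133+Nestin+ versus Nestin+. In CD133+Nestin+ versus CD133+, 2.12% of all genes were called lower and 0.297% higher, so counts of 0 in lists this short are near those shares. Over the 9 libraries, the correlation of single axoneme genes with the median profile of the 87 ran from -0.32 (Cfap97) to 0.99, with 61 above 0.9. Of 12201 other genes with a mean of at least 5 CPM, those with the most similar profile were Erich3 (r = 0.995), Iqcg (0.991), BC005624, Ribc2, Zmynd12, Efcab1, Saxo2, Iqub, Gm12144 and Lrrc34 (0.987 for the last). These correlations describe 9 libraries in 3 populations and carry no test.

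Markers of other cell types also differed between the populations. The 5 choroid plexus markers measured, of 12 listed, summed to 44.3 to 54.5 CPM in CD133+, 73.6 to 85.6 in CD133+Nestin+ and 19.9 to 34.0 CPM in Nestin+ libraries. The choroid plexus epithelium carries tufted cilia as well, and its marker Folr1 stood at 20.9, 27.1 and 16.5 CPM in CD133+, 34.6, 29.2 and 29.3 in CD133+Nestin+ and 2.37, 3.26 and 3.21 in Nestin+ libraries. Folr1 was the only 1 of the 5 called lower in Nestin+ than in CD133+ (9.42% of all genes were), and differences over the 5 ran from -2.49 to 0.27. Microglia and macrophage markers (8 of 9 measured) summed to 776 to 2360, 34.9 to 270 and 32.3 to 92.3 CPM, and endothelial markers (4 of 7 measured) to 330 to 648, 26.9 to 35.6 and 14.5 to 24.7 CPM, in the same order. Mural and fibroblast markers (5 of 7 measured) summed to 712 to 1450, 87.9 to 155 and 58.3 to 92.5 CPM. Oligodendrocyte precursor markers (6 of 6 measured) went the other way, from 59.9 to 139 CPM in CD133+ over 113 to 451 to 577 to 1070 CPM in Nestin+ libraries, and 5 of the 6 were called higher in Nestin+ than in CD133+. Neuronal markers (5 of 7 measured) summed to 23.2 to 92.8, 43.1 to 138 and 127 to 182 CPM. Of the 4 that passed the filter, 2 were called higher in Nestin+ than in CD133+, and differences ran from 0.03 to 2.91. Of 7 radial glia and tanycyte markers, 4 were higher in Nestin+ than in CD133+ cells, where 2.45% of all genes were called higher. In no population did a measured marker of these lists stay below 3 reads in all libraries. Axoneme sums in CD133+Nestin+ libraries remained near those of CD133+ while the vascular and immune sums were several fold lower there. The part of these cells in the difference between Nestin+ and CD133+ was not tested.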

How the data were processed

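Total RNA of 9 libraries (3 per sorted population) was sequenced (Illumina HiSeq, per the labels). Tools named in the submitters' processing notes are STAR 2.5.3a, Partek 8.0, bcl2fastq and limma, with the mm10 build. The counting step, its annotation and its use of strand were not given in the sources used here. Genes that overlap another listed gene (41 of the 87) and near copies are therefore uncertain. The values the authors deposited are CPM by inference: values had an offset of 0.0001, and between 43.2% and 57.4% of the low values of a library fell on whole multiples of 1 step above it (tolerance 0.02 reads). The rows of a library added up to between 65.9% and 87.6% of the CPM total, and whole reads were not recovered. That share was lowest in CD133+Nestin+ replicate 2 (65.9%) and Nestin+ replicate 2 (70.4%). CD133+Nestin+ replicate 2 also had the most genes at 0, with 26. The authors also deposited a table of comparisons with, per the file headers, a p-value, an FDR (step up) and a ratio for each gene, which is quoted as theirs.

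The filter (1 CPM or more, 3 libraries or more) kept 16143 genes and removed 2186. On log2(CPM + 1), a model with 1 mean per population was fitted with limma 3.58.1 (R 4.3.3), using a trended, robust prior on the variance (median prior degrees of freedom 4.93, residual 6) and Benjamini-Hochberg adjustment, at a threshold of 0.05. The fit was tested on simulated data. The pseudocount understates the change of low genes. Replicate numbers are the sort numbers of the labels. Deviations of same-numbered libraries from their group means correlated at 0.204 to 0.73 in 9 pairs, so the numbers pair the samples, and a fit with the number as a block was an alternative. The other alternatives were the pseudocount, filter, scaling, variance model and left-out libraries. Positions and exon lengths came from the GENCODE annotation of GRCm38, and sharing of sequence from 50-base words of its transcripts.

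The members, gene lists and tests were chosen with earlier results of these data known. Genes were named by rule: the 4 of highest mean CPM per role, the 5 largest and smallest differences per comparison, all members not called between Nestin+ and CD133+, and Foxj1, Mcidas, Prom1 and Nes. The 10 genes most like the median profile and at most 3 genes of smallest p per other list were also named. Folr1 is the choroid plexus marker of smallest p, Ccdc151 was also named for its promoter, and Dnah7c and Cfap161 were named after their values were seen.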

Additional observations from a re-analysis of the deposited data

How the results depend on the processing

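The direction of each called axoneme gene held in all 19 alternatives, and 45 of the 67 genes called lower in Nestin+ versus CD133+ stayed called in each of them, as did 10 of the 53 called higher in CD133+Nestin+ versus Nestin+. With the replicate number as a block, 77, 1 and 74 genes were called in Nestin+ versus CD133+ (lower), CD133+Nestin+ versus CD133+ (lower, Zmynd10) and CD133+Nestin+ versus Nestin+ (higher), and the block ended no call. The shares of all genes given above belong to the fit without the block, so how far the gain is general to all genes is not shown. Leaving out each library in turn gave 48 to 71 genes lower in Nestin+ versus CD133+ and 24 to 57 genes higher in CD133+Nestin+ versus Nestin+. The medians then ran from -2.12 to -1.51 in Nestin+ versus CD133+ and from -0.39 to 0.21 in CD133+Nestin+ versus CD133+. In CD133+Nestin+ versus Nestin+ they ran from 1.77 to 2.06. Of the alternatives chosen after seeing the data, leaving out the Nestin+ and CD133+Nestin+ libraries numbered 2 left 10 genes higher in CD133+Nestin+ versus Nestin+, while leaving out all 3 libraries numbered 2 left 47 of 86. The latter moved the median of Nestin+ versus CD133+ to -1.64. The cause was not tested.

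Median centring and quantile normalization shifted the median of all genes by 0.14 and 0.15 in Nestin+ versus CD133+ and by 0.13 and 0.12 in CD133+Nestin+ versus CD133+. The share of calls that were lower in Nestin+ versus CD133+ went from 79.4% to 68.9% and 66.3%, while 62 axoneme genes were called lower under each. With 1 read worth 0.0286 to 0.0344 CPM, the levels of Dnah17, down to 0.188 CPM, rest on few reads.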
